A study of Rattus norvegicus with 4 samples.

Results

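Transcripts of voltage-gated potassium (Kv) channel genes were measured with 4 arrays in primary neurons of the rat cortex. Of 37 genes chosen by name for encoding Kv pore-forming or auxiliary subunits, 35 had a probe set annotated to that gene alone, out of 17245 genes measured. Each of the 35 had exactly 1 such probe set. Kcnc4 was not analysed here, and Kcnip2 was left out because its row also carries a second symbol, Kchip2, and only rows with 1 symbol were used. Kchip2 may be another name of Kcnip2 rather than a second gene. The neurons were prepared from Sprague Dawley rats at embryonic day 18, kept in culture, and infected with pLL3.7, a lentivirus that brings a short hairpin RNA (shRNA) into non-dividing cells. On 2 arrays the virus expressed PHF6shRNA-2 (labelled PHF6 knockdown), directed at Phf6, an X-linked gene for a nuclear zinc-finger protein with mutations in an intellectual disability syndrome. On the other 2 it expressed a control shRNA (labelled wild type). RNA was taken 5 days after infection in both groups, and no other treatment was given. Both knockdown arrays carry the same shRNA, so an effect of Phf6 loss and another effect of that shRNA cannot be told apart. The labels speak of biological duplicates but name no separate culture or animal for each, so p-values reflect only the scatter of these arrays, which may be technical.

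Kv channels open when the membrane depolarises and let potassium leave the cell, which ends the action potential and sets how readily a neuron fires again. Pore-forming subunits assemble within a subfamily. In cortical neurons Shaker (Kv1) channels sit largely along axons, Shab (Kv2) channels on the soma and proximal dendrites, Shaw (Kv3) channels serve fast spiking, Shal (Kv4) channels carry the dendritic A-type current, KCNQ (Kv7) channels carry the M-current that restrains repetitive firing, and EAG and ERG (Kv10 to Kv12) channels differ in kinetics and shape excitability near rest. Silent subunits form no channel alone and modify Shab channels, while cytoplasmic Kv-beta proteins bind Shaker channels and the calcium-binding KChIP proteins bind Shal channels.

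Values are probe set intensities on a linear scale, to which the authors applied RMA, a method that subtracts background, gives all arrays the same distribution and combines the probes of a set. Differences are PHF6 shRNA minus control in log2 units with the SE of limma, a moderated linear model fitted over all 17245 genes, and adjusted p-values are Benjamini-Hochberg values over all of them. Differences between the groups compare each probe set with itself. Signals were compared between probe sets only to set background, to keep a gene's brightest probe set, to pick members to print and sum marker lists. A background level, set at the 95th percentile of 206 chemosensory (olfactory or vomeronasal) receptor genes, stood at 39.9 and 32.7 intensity units on the PHF6 shRNA arrays and at 41.1 and 32.5 on the control arrays. Of the 35 Kv genes, 30 exceeded it on all 4 arrays and Kcnh4 on 3 of them, while Kcnq1, Kcns1, Kcns3 and Kcnab3 exceeded it on none. Phf6 itself had intensities of 34.4 and 31.3 on the PHF6 shRNA arrays and 32.8 and 34.3 on the control arrays, at or near background, so the knockdown could not be seen in it and every direction rests on the labels. The smallest two-sided p of an exact permutation test on 2 against 2 arrays is 0.333.

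**Figure D1:**
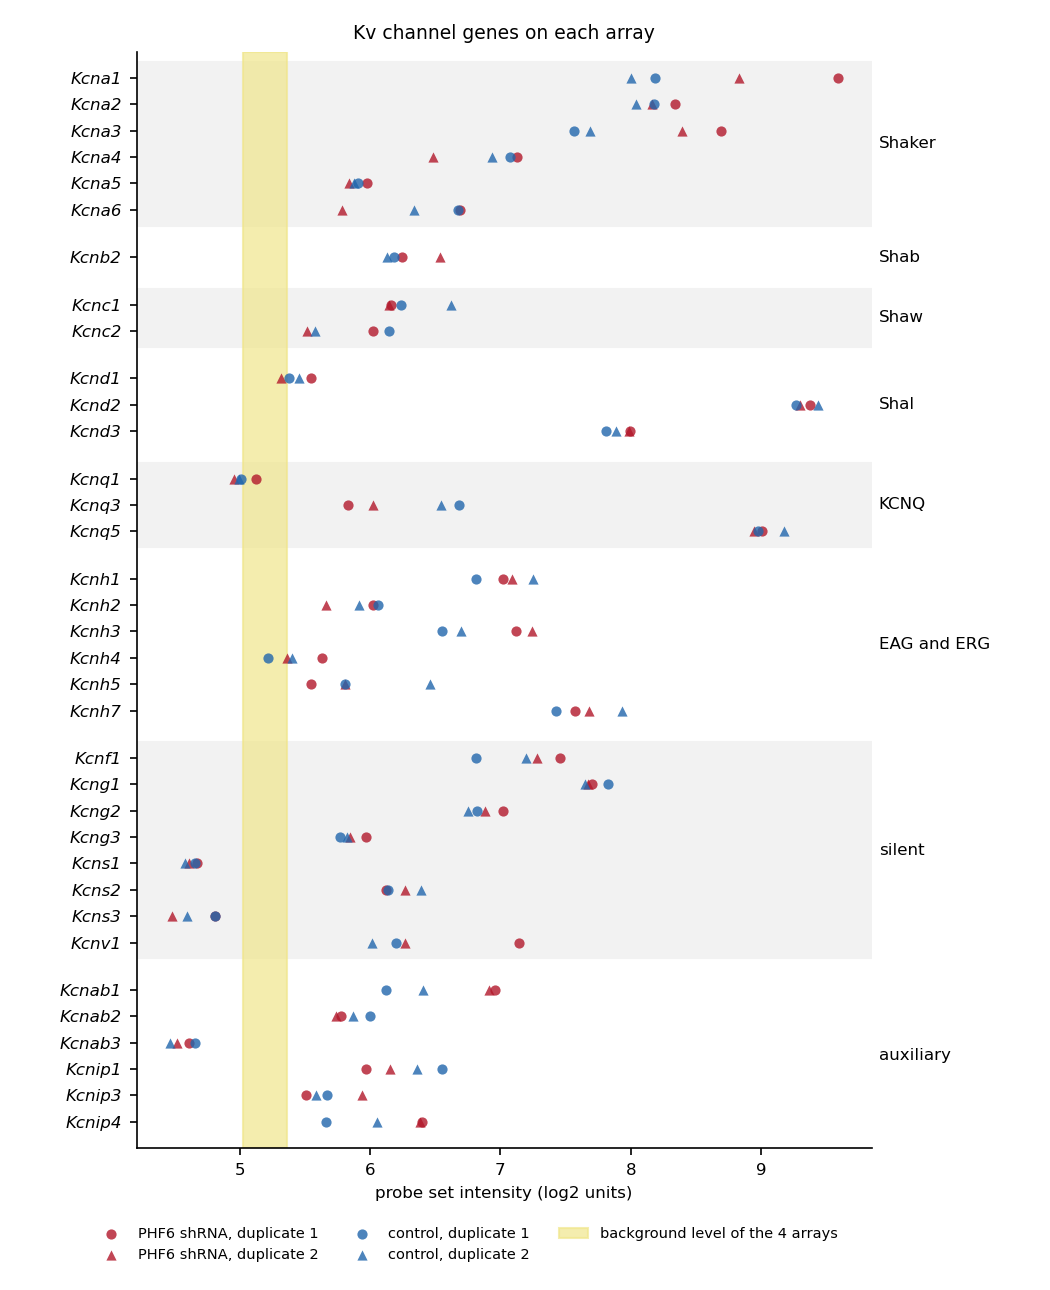
Intensity of the 35 Kv genes on each array (x axis, log2 units), grouped by subfamily down the page, with red marks for PHF6 shRNA and blue marks for control, circles for duplicate 1 and triangles for duplicate 2, and the yellow band spanning the background level of the 4 arrays. Kcna1, Kcna3, Kcnh3, Kcnab1 and Kcnip4 have both red marks to the right of both blue ones, Kcnq3 and Kcnip1 have them to the left, and Kcnq1, Kcns1, Kcns3 and Kcnab3 lie at or left of the band.

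No Kv gene passed an adjusted p of 0.05, and none of the 17245 genes did (limma, 0.0% called). At an unadjusted p under 0.05 stood 7 of the 35 Kv genes (20.0%), against 10.8% of all genes. Higher in the PHF6 shRNA arrays were 5 of the 7, Kcna1, Kcna3, Kcnab1, Kcnh3 and Kcnip4 (14.3% of the 35, against 3.28% of all genes). Lower were Kcnq3 and Kcnip1 (5.71%, against 7.52% of all genes). The split over all genes depended on the scaling. Of the genes at this level 69.7% were lower as deposited, 54.5% after a further quantile normalization, 48.2% after cyclic loess and 71.2% after median centring. A further quantile normalization and cyclic loess each gave 7 Kv genes higher and 2 lower, with 10.6% and 10.5% of all genes at this level. Median centring gave 6 higher and 3 lower, with 10.7% of all genes. Differences above 0 were found in 20 of the 35 Kv genes (57.1%), against 47.7% of all genes. The medians of the Kv genes and of all genes were 0.02 and -0.0066 log2 units. Their median difference in size, sign aside, was 0.14 log2 units, against 0.08 over all genes. The arrays of the groups did not overlap in 16 of the 35 (11 higher and 5 lower in the PHF6 shRNA arrays, 45.7%), against 37.8% of all genes (16.0% higher and 21.7% lower). With a difference of at least 0.3 log2 units as well, 7 Kv genes were higher and 3 lower (28.6%), against 8.14% of all genes (2.71% higher and 5.43% lower). These shares are descriptions and were not tested as a set. Nor do they compare genes of like signal: 30 of the 35 Kv genes exceeded background on all 4 arrays, against 9538 of the 17245 genes. RMA shrinks differences between dim probe sets. Among the 10927 genes above background on at least 2 arrays, 13.1% stood at an unadjusted p under 0.05, against 7 of 31 Kv genes. The shares also depend on which Kv genes were listed. In 6 other measured Kv genes, mostly below background, the groups all overlapped, and none stood at an unadjusted p under 0.05.

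**Figure D2:**
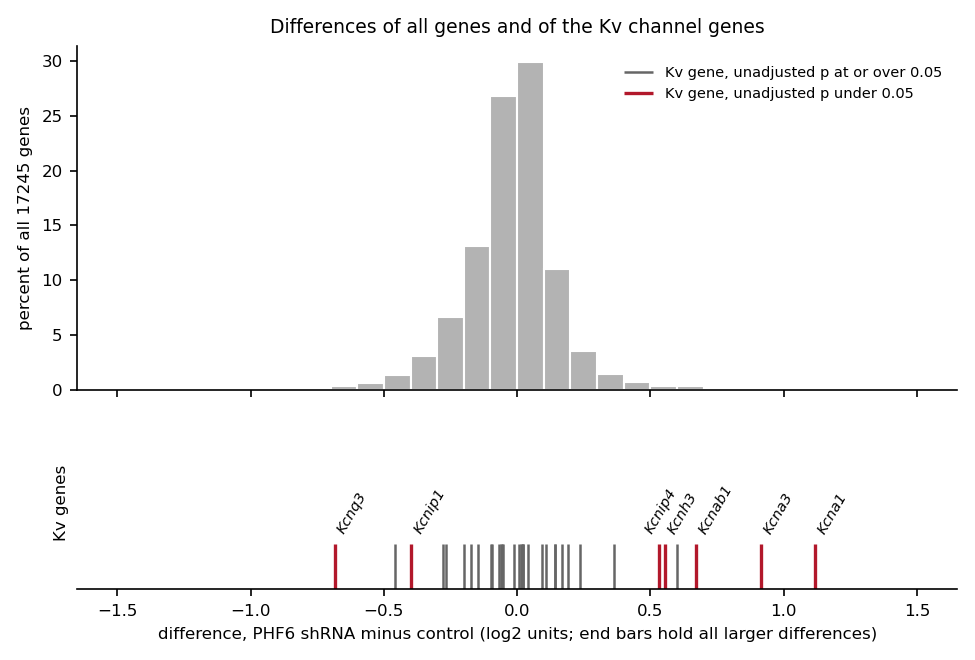
Histogram of the differences of all 17245 genes (top, percent of genes per 0.1 log2 units) above a line for each of the 35 Kv genes (bottom) on the same x axis (PHF6 shRNA minus control, log2 units). The 7 Kv genes at an unadjusted p under 0.05, in red and named, lie in the tails, from -0.68 for Kcnq3 to 1.12 for Kcna1, and most of the others lie near 0.

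Among the Shaker genes, Kcna1 and Kcna3 were higher in both PHF6 shRNA arrays and the other members were not clearly apart. Kcna1 encodes Kv1.1, a low-threshold subunit of axons that is mutated in episodic ataxia. It had intensities of 772 and 455 on the PHF6 shRNA arrays, against 291 and 257 on the control arrays. The groups did not overlap, but the PHF6 shRNA arrays themselves lay far apart (9.21 ± 0.54 log2 units, against 8.10 ± 0.13 in control, SD, n = 2 each). The difference was 1.12 ± 0.25 log2 units, or 2.17-fold (limma adjusted p = 0.25, unadjusted 0.00535). With duplicate 1 of the PHF6 shRNA arrays left out it was 0.74, and with duplicate 2 left out it was 1.50. Such a fit holds a lone PHF6 shRNA array, which is assumed to vary like the control pair, so only its difference is given.

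Kcna3 encodes Kv1.3, a subunit of neurons, lymphocytes and microglia. Its intensities were 414 and 337 on the PHF6 shRNA arrays, against 189 and 207 on the control arrays. The gap between the groups was wider than the gap within either of them. The difference was 0.92 ± 0.13 log2 units, or 1.89-fold (limma adjusted p = 0.23, unadjusted 0.000521), with a 95% interval from 0.60 to 1.23. The adjusted p of 0.23 was the smallest that any of the 17245 genes reached, but other genes shared it. Among these were Kcnq3 and Dpp6, both described below, and Dpp6 had a smaller unadjusted p than Kcna3 (limma, 0.000414). Without PHF6 shRNA duplicate 2 the difference was 1.06, and without duplicate 1 it was 0.77. The SD was 0.21 log2 units between the PHF6 shRNA arrays and 0.09 between the control arrays.

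Kcna2, which encodes Kv1.2, the usual partner of Kv1.1 in axonal channels, had 323 and 287 on the PHF6 shRNA arrays and 290 and 263 on the control arrays. These ranges overlap, and the difference of 0.14 log2 units had a 95% interval from -0.12 to 0.40. Kcna4, for the rapidly inactivating Kv1.4, and Kcna6, for Kv1.6, differed by -0.20 and -0.27 with overlapping arrays. In both genes the lowest of the 4 values was that of PHF6 shRNA duplicate 2, at 89.5 for Kcna4 and 55.0 for Kcna6. Kcna5, for Kv1.5, was nearly level on the 4 arrays, with 62.9 and 57.3 against 59.9 and 58.8, and its interval ran from -0.21 to 0.24.

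The Shaker genes that stood higher lie beside others that did not. In the GRCr8 assembly of RefSeq, Kcna1 on chromosome 4 has Kcna5 and Kcna6 as its nearest protein-coding neighbours, which differed by 0.02 ± 0.09 and -0.27 ± 0.30 log2 units. Kcna3 on chromosome 2 is followed by Kcna2 and then by Kcna10, which differed by 0.14 ± 0.10 and 0.01 ± 0.11. Of the 15 other measured genes within 5 positions of either gene, 0 had both PHF6 shRNA arrays above both control arrays (against 16.0% of all genes). Both lay below in 2 of them, Ndufa9 at -0.21 and Lrif1 at -0.20 (against 21.7% of all genes).

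The stretch of 250 bases before the annotated gene start is shown for Kcna3, its neighbour Kcna2 and the Shaker partner Kcnab1, to set 2 genes whose groups stood apart beside an adjacent Shaker gene whose groups overlapped. The sequences are RefSeq's, on the plus strand of GRCr8, at chr2:197320074-197320323 for Kcna3, chr2:197393280-197393529 for Kcna2 and chr2:151614301-151614550 for Kcnab1. Capitals mark GC boxes (GGGCGG) and CCAAT boxes (CCAAT) read on either strand.
Kcna3: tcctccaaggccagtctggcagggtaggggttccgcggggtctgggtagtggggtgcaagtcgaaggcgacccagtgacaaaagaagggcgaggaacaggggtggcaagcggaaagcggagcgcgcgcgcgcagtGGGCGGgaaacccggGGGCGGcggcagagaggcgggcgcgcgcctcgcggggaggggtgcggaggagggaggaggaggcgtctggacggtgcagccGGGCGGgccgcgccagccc
Kcna2: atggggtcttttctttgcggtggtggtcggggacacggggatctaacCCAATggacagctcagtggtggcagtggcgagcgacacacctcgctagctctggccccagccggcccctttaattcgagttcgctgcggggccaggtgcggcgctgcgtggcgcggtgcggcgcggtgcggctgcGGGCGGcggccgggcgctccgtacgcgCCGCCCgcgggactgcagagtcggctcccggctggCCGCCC
Kcnab1: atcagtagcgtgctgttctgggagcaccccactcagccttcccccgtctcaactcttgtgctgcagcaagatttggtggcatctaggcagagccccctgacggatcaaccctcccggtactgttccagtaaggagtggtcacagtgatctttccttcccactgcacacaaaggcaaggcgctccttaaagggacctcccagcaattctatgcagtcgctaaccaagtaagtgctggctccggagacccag
Kcna3 and Kcna2 were alike in composition, with 73.6% and 72.4% G or C, 29 and 33 CpG dinucleotides and 3 GC boxes each. Kcna2 also holds a CCAAT box, and Kcnab1, at 56.0% G or C with 7 CpG dinucleotides, holds neither motif. Such a window was found for 24 of the 35 Kv genes, and not for Kcna1, Kcnq3, Kcnh3 or Kcnip4 among those at an unadjusted p under 0.05. Over the 24 the median was 65.2% G or C with 19 CpG dinucleotides, against 51.2% and 5 over the 33465 windows of all annotated genes, which include noncoding ones. A GC box was present in 12 of the 24 and in 30.5% of all windows, a CCAAT box in 4 and in 34.0%, and an E-box (CANNTG) in 17 and in 65.5%. None of the 24 held a TATA box (TATAAA, 12.9% of all windows), a cAMP response element (TGACGTCA, 1.6%), an EGR site (GCGTGGGCG, 0.5%) or an AP-1 site (TGANTCA, 6.3%). Each motif was searched on both strands without regard to overlaps, and a match is a description of these letters.

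Kcnb2, the measured Shab gene, encodes the delayed rectifier Kv2.2. It had 75.8 and 93.1 on the PHF6 shRNA arrays, against 72.7 and 70.2 on the control arrays. The groups did not overlap, by a narrow margin, and the difference was 0.23 ± 0.12 (limma adjusted p = 0.61).

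The measured Shaw genes both had differences below 0. Kcnc1, for Kv3.1, read 71.5 and 70.6 on the PHF6 shRNA arrays, against 75.4 and 98.4 on the control arrays, a difference of -0.28 ± 0.14 (limma adjusted p = 0.60). Control duplicate 2 stood above the other 3 arrays, and without it the difference was -0.09. Kcnc2, for Kv3.2, had 65.0 and 45.8 against 70.8 and 47.8. There the arrays numbered 2 were the lower ones in both groups, and the difference between groups was -0.09 ± 0.24.

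The Shal genes were close to level. Kcnd2, for Kv4.2, the main A-type subunit of hippocampal and cortical pyramidal dendrites, read 665 and 632 on the PHF6 shRNA arrays and 616 and 694 on the control arrays, so the PHF6 shRNA values fell between the control values. Its difference was -0.01 with a 95% interval from -0.26 to 0.23, and turned to 0.07 and 0.05 under cyclic loess and a further quantile normalization. Kcnd3, for Kv4.3, differed by 0.14 ± 0.08 with arrays apart, at 256 and 254 against 225 and 237. Kcnd1, for Kv4.1, differed by 0.01.

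The KCNQ genes divided. Kcnq3, for Kv7.3, a subunit of the M-current channel that is mutated in benign neonatal seizures, read 57.0 and 65.0 on the PHF6 shRNA arrays, against 103 and 93.1 on the control arrays. Both PHF6 shRNA arrays lay well below both control arrays. The difference was -0.68 ± 0.11 log2 units, or 1.61-fold (limma adjusted p = 0.23, unadjusted 0.001), with a 95% interval from -0.95 to -0.42, and leaving out each array in turn gave -0.78 to -0.59. Kcnq5, for Kv7.5, which also contributes to cortical M-currents, read 515 and 493 on the PHF6 shRNA arrays and 503 and 579 on the control arrays. Its groups overlapped, and the interval of its difference ran from -0.36 to 0.16. Kcnq1, for the cardiac and epithelial Kv7.1, was below background on all 4 arrays.

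Of the EAG and ERG genes, 3 had differences above 0 and 3 below. Kcnh3, for Kv12.2, a forebrain subunit that opens near rest, read 139 and 151 on the PHF6 shRNA arrays, against 93.6 and 104 on the control arrays. Both groups were tight, and the difference was 0.56 ± 0.10, or 1.47-fold (limma adjusted p = 0.24, unadjusted 0.00186). It stayed between 0.48 and 0.63 when each array was left out. Kcnh5, for Kv10.2, had 46.8 and 55.9 on the PHF6 shRNA arrays, against 56.0 and 87.9 on the control arrays. PHF6 shRNA duplicate 2 and control duplicate 1 were almost equal there, so the difference of -0.46 ± 0.23 (limma adjusted p = 0.59) rested on control duplicate 2, without which it was -0.13. Kcnh7, for the ERG subunit Kv11.3, had 191 and 205 on the PHF6 shRNA arrays, inside the 172 and 245 of the control arrays. Kcnh1, for Kv10.1, differed by 0.02, Kcnh2, for Kv11.1 (the cardiac hERG channel), by -0.15 and Kcnh4, for Kv12.3, by 0.19, all with overlapping arrays.

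Silent subunits had 5 differences above 0 and 3 below, and none reached an unadjusted p of 0.05. Kcnv1, for Kv8.1, read 142 and 77.2 on the PHF6 shRNA arrays, against 73.5 and 64.5 on the control arrays. Duplicate 1 of the PHF6 shRNA arrays was far above the other 3, and the difference of 0.60 ± 0.28 (limma adjusted p = 0.55) was 0.16 without it. Without PHF6 shRNA duplicate 2, which keeps only the higher PHF6 shRNA array, it was 1.04. The SD was 0.62 log2 units between the PHF6 shRNA arrays and 0.13 between the control arrays. Kcnf1, for Kv5.1, had 176 and 155 against 113 and 147, which do not overlap, a difference of 0.36 ± 0.15 (limma adjusted p = 0.48) that was 0.17 without control duplicate 1 and 0.56 without control duplicate 2. Kcng1, for Kv6.1, had 208 and 204 on the PHF6 shRNA arrays, both between the 227 and 201 of the control arrays. Kcng2 and Kcng3, of the same Kv6 group, differed by 0.17 and 0.11 without overlap. Kcns2, for Kv9.2, differed by -0.07 and its groups overlapped.

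**Figure D3:**
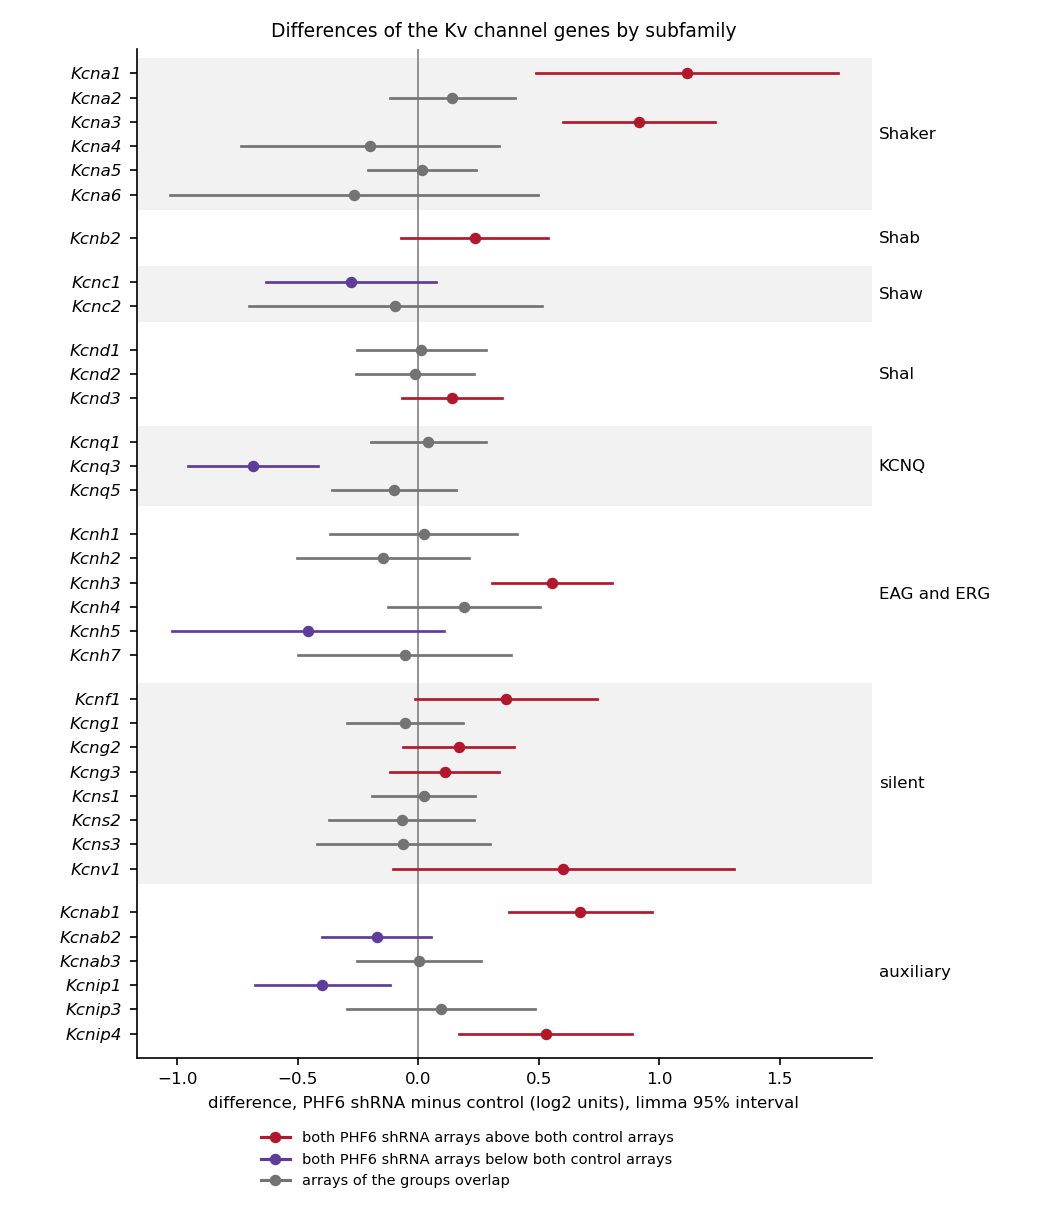
Difference of each Kv gene between the groups (x axis, PHF6 shRNA minus control, log2 units) with limma's 95% interval, grouped by subfamily. Colour marks whether both PHF6 shRNA arrays lay above both control arrays (red), below both (purple) or overlapped them (grey). The intervals of Kcna1, Kcna3, Kcnh3, Kcnab1 and Kcnip4 lie above 0 and those of Kcnq3 and Kcnip1 below 0, before any adjustment for the number of genes.

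Of the 6 auxiliary genes measured, 3 stood at an unadjusted p under 0.05 (against 10.8% of all genes): Kcnab1 and Kcnip4 were higher and Kcnip1 lower in the PHF6 shRNA arrays. Kcnab1, for Kv-beta-1, which speeds the inactivation of Shaker channels, read 124 and 121 on the PHF6 shRNA arrays, against 69.6 and 85.0 on the control arrays. The PHF6 shRNA arrays were nearly equal and both above control, by 0.67 ± 0.12 log2 units or 1.59-fold (limma adjusted p = 0.24, unadjusted 0.00179). Kcnab2, for Kv-beta-2, which helps Shaker channels reach the axon, read 55.0 and 53.5 on the PHF6 shRNA arrays, against 64.0 and 58.4 on the control arrays. That difference was small, at -0.17 ± 0.09 (limma adjusted p = 0.61), though the groups did not overlap. Kcnab3, for Kv-beta-3, was below background on all 4 arrays.

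Among the KChIP genes, Kcnip4 was higher and Kcnip1 lower in the PHF6 shRNA arrays. Kcnip4, for KChIP4, read 84.3 and 83.3 on the PHF6 shRNA arrays, against 50.6 and 66.5 on the control arrays. The difference was 0.53 ± 0.14, or 1.44-fold (limma adjusted p = 0.31, unadjusted 0.0119), and 0.33 without control duplicate 1, the lowest array. Kcnip1, for KChIP1, a protein found in many interneurons, read 62.6 and 71.0 on the PHF6 shRNA arrays, against 93.6 and 82.3 on the control arrays. The difference was -0.40 ± 0.11, or 1.32-fold (limma adjusted p = 0.32, unadjusted 0.014), with -0.49 to -0.31 when each array was left out. Kcnip3, for KChIP3, also known as calsenilin or DREAM, differed by 0.09 ± 0.16 with overlapping arrays.

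Proteins that bind Kv channels or place them in the membrane were examined as a list of 30 genes, of which 26 were measured. Their median difference was -0.02 log2 units, and 5 of the 26 stood at an unadjusted p under 0.05 (19.2%, against 10.8% of all genes), 3 higher and 2 lower. None passed the adjusted threshold in this fit. Both lower genes encode single-pass partners that speed the gating of Shal channels. Dpp6 read 186 and 209 on the PHF6 shRNA arrays, against 321 and 334 on the control arrays, a difference of -0.73 ± 0.10 or 1.66-fold (limma adjusted p = 0.23, unadjusted 0.000414). Dpp10 read 52.4 and 70.0 on the PHF6 shRNA arrays, against 98.6 and 92.5 on the control arrays, a difference of -0.66 ± 0.15 or 1.58-fold (limma adjusted p = 0.27). Leaving out each array in turn gave -0.82 to -0.65 for Dpp6 and -0.87 to -0.45 for Dpp10. In both genes the groups did not overlap, while the Shal pore genes Kcnd1, Kcnd2 and Kcnd3 differed by 0.01, -0.01 and 0.14.

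The higher partner genes were Cntnap2, Akap5 and Kcne4. Cntnap2, for Caspr2, the adhesion protein that clusters Shaker channels beside the node of Ranvier, read 158 and 133 on the PHF6 shRNA arrays, against 115 and 120 on the control arrays, a difference of 0.30 ± 0.11 (limma adjusted p = 0.42). Akap5, for an anchoring protein of protein kinase A that also binds KCNQ channels, differed by 0.47 ± 0.17 (limma adjusted p = 0.41). Kcne4 was below background on all 4 arrays. Cntn2 and Lgi1, for other proteins of the axonal Shaker complex, differed by 0.11 ± 0.11 and 0.02 ± 0.20 with overlapping arrays.

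**Figure D4:**
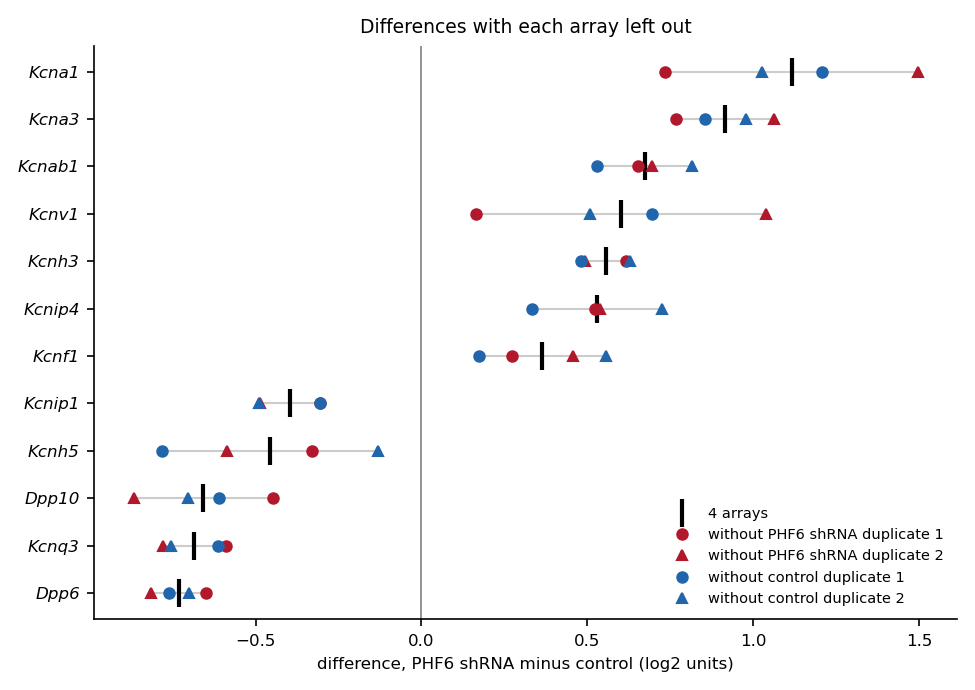
Differences (x axis, PHF6 shRNA minus control, log2 units) of the 10 Kv genes, and of Dpp6 and Dpp10, with a difference of at least 0.3 log2 units and no overlap between the groups, with all 4 arrays (black bar) and with each array left out in turn (red marks, a PHF6 shRNA array; blue marks, a control array; circles, duplicate 1; triangles, duplicate 2). Each of these 12 genes keeps its sign, which is fixed by choosing genes whose groups do not overlap. Kcna1, Kcnv1 and Kcnh5 spread most.

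The 25 Kv genes outside the 10 with a difference of at least 0.3 log2 units and no overlap had differences from -0.28 (Kcnc1) to 0.23 (Kcnb2). Their 95% intervals reached from -1.03 at the lowest to 0.54 at the highest, so changes of moderate size could not be detected in the more variable of them. Subfamily medians were 0.08 (Shaker), -0.19 (Shaw, 2 genes), 0.01 (Shal), -0.10 (KCNQ), -0.02 (EAG and ERG), 0.07 (silent) and 0.05 (auxiliary) log2 units, beside -0.0066 for all genes. The Shaker median lay near 0 although its members ran from -0.27 (Kcna6) to 1.12 (Kcna1), and the auxiliary median likewise, with members from -0.40 (Kcnip1) to 0.67 (Kcnab1).

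In bulk RNA, fewer cells of a type and less RNA per cell cannot be told apart, so markers of the cell types in the culture are given here without a test of the lists. All 8 measured neuron markers were above background on all 4 arrays. Their summed intensity was 10755 and 11079 on the PHF6 shRNA arrays, against 12107 and 12156 on the control arrays. Lower were 7 of the 8, and 5 of these did not overlap. Over all genes 47.7% had differences above 0, and the groups did not overlap in 16.0% (higher) and 21.7% (lower). Of 7 excitatory neuron markers 6 had differences above 0, 3 of them without overlap, with sums of 3612 and 3344 against 3243 and 3106. The exception, Slc17a6, for a vesicular glutamate transporter, was dim and lower, with 55.6 and 47.0 on the PHF6 shRNA arrays against 85.3 and 79.3 on the control arrays (-0.69 ± 0.11, limma adjusted p = 0.23). GABAergic markers had differences above 0 in 11 of 12, 6 without overlap, and their sums of 4811 and 3937 against 4466 and 3449 overlapped between the groups. All 8 astrocyte markers had differences above 0, but the groups overlapped in 6 of them, among them Gfap at 0.01 ± 0.29 and Slc1a3 at 0.12 ± 0.55. Slc1a2 and Aldoc, which did not overlap, stood at 0.98 ± 0.20 and 0.61 ± 0.18 (limma adjusted p = 0.24 and 0.35). The astrocyte sums were 1141 and 1771 against 808 and 1454, higher on the arrays numbered 2 in both groups by more than the groups were apart. Of the 6 microglial markers, Aif1, Csf1r, P2ry12 and Itgam were below background on all 4 arrays, while Cx3cr1 and Tmem119 were above it on all 4. Cldn5 and Cdh5 of endothelium were below it on all 4 arrays. The 4 dividing cell markers measured had differences below 0 with overlapping arrays, and sums of 180.5 and 493 against 256 and 455. Of 8 oligodendrocyte lineage markers 3 had differences above 0 and 5 below, and the groups overlapped in 7. All 4 fibroblast markers had differences above 0, with overlap in 3. Activity-induced genes had differences above 0 in 7 of 12, 5 of them without overlap, with overlapping sums of 2932 and 2341 against 2599 and 2073. The other 5 were below 0, all with overlapping arrays. Egr1, Egr3, Nr4a2 and Nr4a3, 4 of the 12 (33.3%), were higher at an unadjusted limma p under 0.05, against 3.28% of all genes. None of the 12 was lower at that level, against 7.52% of all genes. No marker passed the adjusted threshold, and the part of these differences in the Kv values was not tested.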

How the data were processed

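Trizol-extracted total RNA was converted to whole-transcript sense target and read on 1-colour Affymetrix arrays after biotin labelling, per the labels' protocols. The authors deposited intensities processed with RMA, as the submitters' processing notes record; its version and settings are not stated in what was used here. The values span 8.57 to 6121 and are therefore linear, and their log2 was used in all fits. RMA shrinks differences between dim probe sets, and precision is limited by the number of arrays.

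The platform annotation gives 1 gene symbol to 18644 of 29214 rows, several to 962 and none to 9608. Gene identifiers linked 18460 of the 18644 to current RefSeq symbols (GRCr8). For 879 genes with more than 1 probe set the brightest was kept. The sample titles gave the groups. The model was limma's lmFit with eBayes (limma 3.58.1, R 4.3.3), 2-sided, without filter or covariate, with p-values adjusted by Benjamini-Hochberg across 17245 genes at a threshold of 0.05, and it was tested on simulated data. Alternatives were the duplicate number as a block, each array left out, 3 other scalings, a filter on dim genes, the mean of probe sets and a variance trend.

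The members and gene lists were chosen with earlier results of these data known. Values on every array are given for Kv genes at an unadjusted p under 0.05, the brightest of each subfamily, those with a difference of at least 0.3 log2 units and no overlap, and Phf6. Other genes shown were added after their values were seen.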

Additional observations from a re-analysis of the deposited data

How the results depend on the processing

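Over 11 alternatives 18 of the 35 Kv genes kept the sign of their difference, among them all 7 at an unadjusted p under 0.05. The groups did not overlap in any of these 7, so leaving out an array could not turn their signs. The descriptions repeat the duplicate numbers after "exp", but no label states that they pair the arrays. Deviations of same-numbered arrays from their group means correlated across genes at 0.57. With the duplicate number as a replicate block 12 of the 35 Kv genes stood at an unadjusted p under 0.05, against 19.8% of all genes. An adjusted p of 0.05 was passed by 909 of the 17245 genes and by 7 of the 35 Kv genes. The 7 were Kcna1, Kcna3, Kcnq3, Kcnh3, Kcnh5, Kcnab1 and Kcnip4 (limma adjusted p from 0.00759 to 0.0488), and in that fit Kcnc2 and Kcna6 differed between the duplicate numbers (limma adjusted p = 0.0123 and 0.0424). The block also let Dpp6 and Dpp10 pass (limma adjusted p = 0.0068 and 0.0245). In fits without an array, the lone array of its group is assumed to vary like the other group's pair. They gave 0 to 90 genes past the threshold and 0 to 3 Kv genes, the highest without PHF6 shRNA duplicate 2. In these fits the subfamily medians ran from 0.0038 to 0.21 (Shaker), -0.32 to -0.056 (Shaw), -0.050 to 0.13 (Shal), -0.20 to 0.0029 (KCNQ), -0.13 to 0.22 (EAG and ERG), 0.023 to 0.14 (silent) and -0.037 to 0.14 (auxiliary). Cyclic loess put the Shal median at 0.068, and the filter on dim genes, which removes Kcnq1, put the KCNQ median at -0.39.

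Small differences changed sign under cyclic loess and a further quantile normalization, to 0.068 and 0.050 for Kcnd2, 0.034 and 0.014 for Kcnh7, 0.036 and 0.023 for Kcng1 and -0.0087 and -0.010 for Kcnab3. In all, 17 genes, these 4 included, changed sign when an array was left out. Their ranges were, for each gene, Kcna4 -0.52 to 0.12, Kcna5 -0.050 to 0.084, Kcna6 -0.72 to 0.19, Kcnc2 -0.38 to 0.19, Kcnd1 -0.099 to 0.13, Kcnd2 -0.098 to 0.073, Kcnq1 -0.044 to 0.13, Kcnq5 -0.20 to 0.0029, Kcnh1 -0.19 to 0.24, Kcnh2 -0.32 to 0.035, Kcnh7 -0.31 to 0.20, Kcng1 -0.14 to 0.035, Kcns1 -0.015 to 0.060, Kcns2 -0.20 to 0.060, Kcns3 -0.23 to 0.10, Kcnab3 -0.092 to 0.10, Kcnip3 -0.12 to 0.31. The cause was not tested. Signals near background limit Kcnq1, Kcns1, Kcns3 and Kcnab3.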

Other observations

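Potassium channels outside the Kv class were examined as another list. Of 42 listed genes of the calcium-activated, sodium-activated, inward rectifier, K2P and HCN families, 39 were measured, with a median difference of 0.03 log2 units. At an unadjusted p under 0.05 stood 4 of them (10.3%, against 10.8% of all genes), and none passed the adjusted threshold. Of the 39, 25 exceeded background on all 4 arrays and 12 on none, against 30 and 4 of the 35 Kv genes, so the lists differ in signal. Kcnk9, for the leak channel TASK-3, read 1285 and 1276 on the PHF6 shRNA arrays, against 1056 and 1111 on the control arrays, a difference of 0.24 ± 0.08 (limma adjusted p = 0.40). Hcn4, for a hyperpolarisation-activated channel, read 132 and 146 on the PHF6 shRNA arrays, against 94.5 and 121 on the control arrays, a difference of 0.38 ± 0.14 (limma adjusted p = 0.42). Kcnma1, for the calcium-activated BK channel, read 603 and 519 on the PHF6 shRNA arrays, against 684 and 687 on the control arrays, a difference of -0.29 ± 0.10 (limma adjusted p = 0.41). Kcnt1, for a sodium-activated channel, differed by 0.35 ± 0.13 (limma adjusted p = 0.45). Of 10 further Kv genes listed, 6 were measured, and the groups overlapped in all 6, whose probe sets were mostly below background.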
